A study of Mus musculus with 8 samples.

Results

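The core spliceosome snRNP proteins were taken here as the 53 genes, of 12551 in the count table, whose symbols begin with Snrp, Snrnp, Sf3a or Sf3b and a digit, Lsm and a digit, or Prpf. Their mRNA was measured by RNA sequencing in the tibialis anterior (TA), a fast limb muscle, of 4 wild-type (WT, Klotho wt/wt) and 4 Klotho null/null (KL-/-) male mice aged 7 weeks. The 2 genotypes were littermates bred from heterozygous parents on a mixed background. The null allele is carried in the whole body, so the muscle of a KL-/- mouse lacks Klotho and also comes from an animal without it in kidney and other organs. The comparison asks how the mRNAs of the splicing machinery differ in muscle without Klotho.

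The spliceosome removes introns from pre-mRNA and is built from small nuclear ribonucleoproteins (snRNPs), each a small nuclear RNA wrapped in proteins. U1, U2, U4 and U5 carry a ring of Sm proteins, and U6 carries a related ring of LSm proteins. U1 recognizes the 5' splice site, U2 with its SF3a and SF3b complexes binds the branch point, and the U4/U6.U5 tri-snRNP delivers the subunits that form the catalytic core. A minor spliceosome with U11 and U12 acts on a small class of introns. These proteins are made in every cell type of muscle, and in bulk tissue more transcript per cell cannot be told apart from more of the cells that hold it.

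Counts on genes summed to between 20860262 and 29273758 per library and gave p = 0.371 between genotypes (exact permutation test over the 8 libraries, two-sided). Every member passed the filter on low counts, and the lowest count of any member in any library was 56. The 10 muscle fibre markers examined were all present, with a summed level of 154800 to 177300 CPM in WT and 181700 to 227800 CPM in KL-/- muscle. *Kl* itself is not among the genes analysed here, so the genotypes rest on the labels. The batch date of KL-/- replicate 3 differs from that of the remaining 7 libraries, and it cannot be told apart from that mouse. CPM expresses the counts of a gene relative to all gene counts of its library, scaled here with edgeR's TMM factors. These ran from 1.02 to 1.05 (WT) and 0.950 to 0.980 (KL-/-). They did not overlap between genotypes (p = 0.0286, two-sided exact permutation test over the 8 libraries), so the scaling differs along with genotype. The test was the quasi-likelihood test of edgeR, adjusted over all 12551 genes by the Benjamini-Hochberg method (FDR) with a threshold of 0.05, and fold changes are KL-/- over WT.

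9 of the 53 members rose in KL-/- muscle and 0 fell. Of all genes tested, 7.35% were called higher and 6.67% lower, and the share of members called higher was 17.0%. The 9 were *Snrnp70* and *Snrnp48*, which encode snRNP-specific proteins of U1 and U11, *Sf3b1* of U2, *Lsm6* and *Lsm14b* of the LSm family, and *Prpf4b*, *Prpf18*, *Prpf19* and *Prpf40b*. At an unadjusted p under 0.05 there were 21 members, or 39.6%, where 32.1% of all genes passed that limit. All 4 KL-/- muscles lay above all 4 WT muscles in 15 members, or 28.3%, against 10.2% of all genes, and below them in 1 member, or 1.89%, against 9.47% of all genes. The changes were small, with fold changes from 1.16 to 1.44 among the 9, and the 53 log2 fold changes ran from −0.40 to 0.53 with a median of 0.075, where the median of all genes was −0.016.

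The count of 9 depended on the scaling and on single libraries. Where libraries were scaled by their totals instead, the median log2 fold change moved from −0.016 to −0.13 over all genes and from 0.075 to −0.043 over the members, 3 members were called higher and 2 lower, and 18.8% of all calls were in the higher direction against 52.4% with TMM factors. With WT replicate 2 left out 4 members were called higher, where 3.22% of all genes were. Without WT replicate 3, KL-/- replicate 3 or KL-/- replicate 4, 3 members were, where 3.3%, 3.25% and 3.47% of all genes were. Without KL-/- replicate 2, 12 members and 12.1% of all genes were. With all 8 libraries it was 7.35% of all genes, so the calls over all genes moved in the same direction. *Snrnp70*, *Sf3b1* and *Lsm6* were called higher in all 20 alternative analyses, among them library totals and each library left out in turn, and the other 6 were not. 1 of the 20, the analysis without a filter on low counts, equals the reported one because the filter removed no gene.

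**Figure D1:**
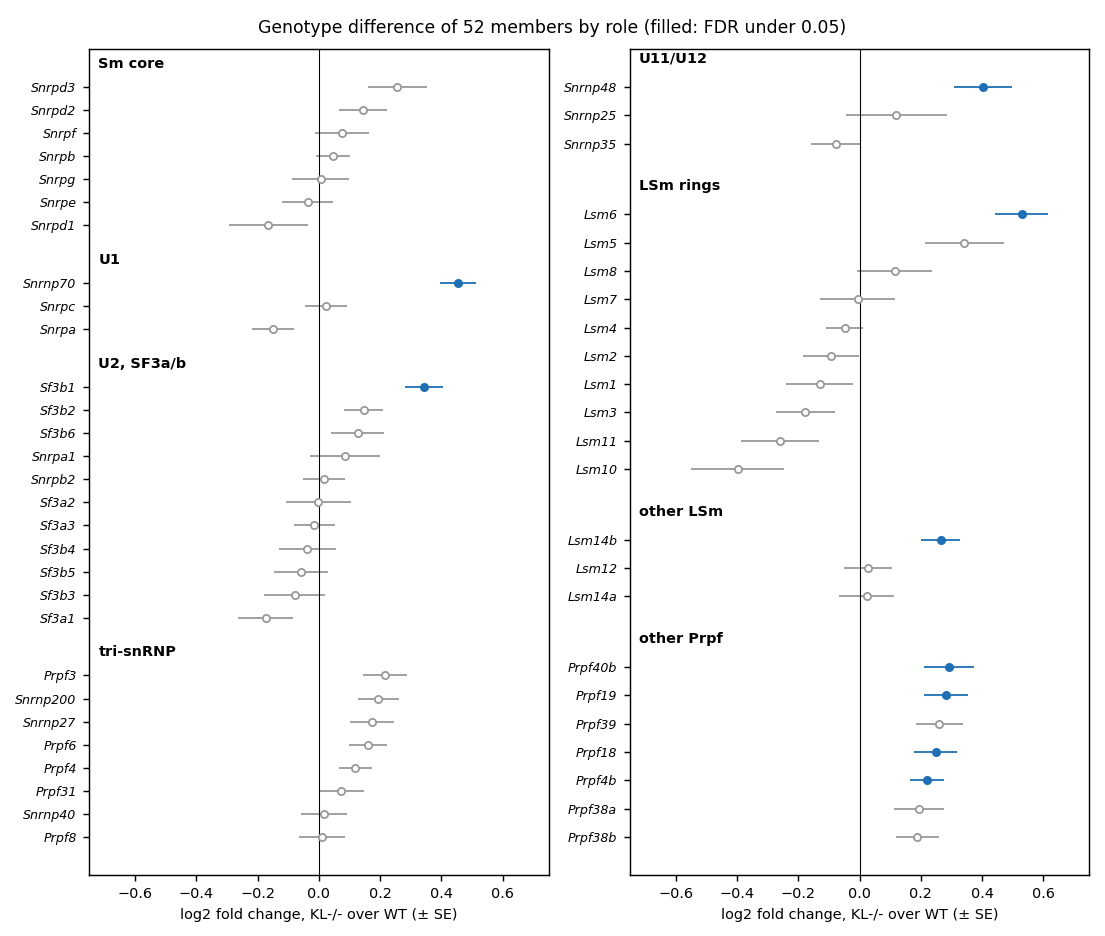
Log2 fold change (KL-/- over WT, horizontal axis) of 52 of the 53 members, grouped by role, with bars of 1 standard error; filled blue points passed an FDR of 0.05 and open grey points did not. Every point shown of the tri-snRNP and of the other Prpf factors lies right of 0 with these TMM factors (with library totals 5 of the 8 tri-snRNP genes do), whereas the Sm core, U2 and LSm ring points lie on both sides of it.

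U1 has 3 proteins of its own, and of their genes only that of the largest was called. *Snrnp70*, which encodes the U1-70K protein that binds the first stem-loop of U1 RNA (chromosome 7, 45376454 to 45395742 of mm10), was at 82.7, 83.6, 79.2 and 81.2 CPM in WT replicates 1 to 4 and at 108, 111, 106 and 122 CPM in KL-/- replicates 1 to 4. The lowest KL-/- muscle was thus above the highest WT muscle, and the WT values lay close together. The log2 fold change was 0.45 (standard error 0.059, FDR = 0.00318), a 1.37-fold difference between 81.7 ± 1.95 CPM in the WT muscles and 112 ± 7.05 CPM in those of KL-/- mice (SD, n = 4). On that scale it ranged from 0.41 to 0.48 with each library left out, with an FDR of at most 0.0133. *Snrpa*, the U1-A protein, was at 25.1, 24.5, 22.9 and 22.3 CPM in the 4 WT libraries and 22.2, 20.7, 22.0 and 20.5 CPM in the 4 KL-/- libraries. It was the 1 member whose KL-/- values all lay below the WT values, by a narrow margin, its difference of −0.15 on the log2 scale (standard error 0.068) giving an FDR of 0.161. With library totals that became −0.27 with an FDR of 0.0253. *Snrpa* shares 7.45% of its exon bases with a gene on the opposite strand. *Snrpc*, the U1-C protein, was at 30.5 ± 2.17 CPM in the WT muscles and 31.0 ± 1.02 CPM in those of KL-/- mice (SD, n = 4), and the interval of 2 standard errors on either side of its log2 fold change ran from −0.11 to 0.16.

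Because these 3 genes are counted in the same libraries, their ratios do not depend on how libraries are scaled. The ratios were chosen after the values had been seen and are given as a description, without a test. *Snrnp70* had 3.29, 3.42, 3.46 and 3.64 counts for each count of *Snrpa* in the WT libraries and 4.87, 5.36, 4.83 and 5.95 in the KL-/- libraries. Over *Snrpc* the ratio was 2.69 ± 0.181 for WT and 3.61 ± 0.207 for KL-/- (SD, n = 4). Over the 7 Sm genes summed it was 0.366 ± 0.0138 and 0.469 ± 0.0246. In none of these 3 ratios did the genotypes overlap, so that *Snrnp70* was higher in KL-/- muscle relative to the other U1 and Sm mRNAs.

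**Figure D2:**
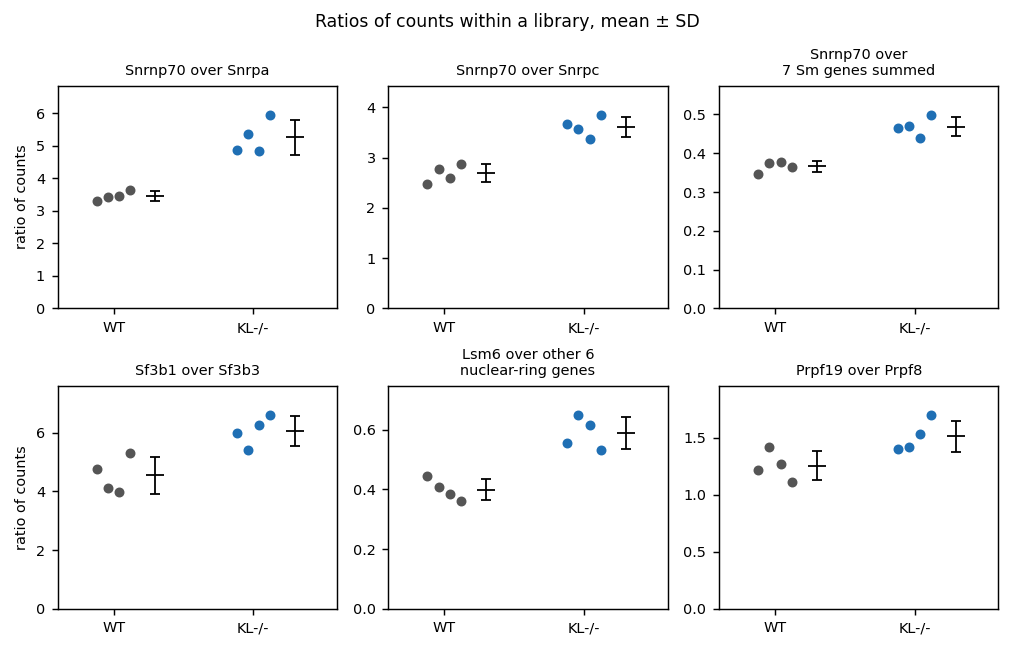
Ratio of counts of the named members within each library (vertical axes, from 0), with 1 point per library, grey for WT and blue for KL-/-, and the mean ± SD beside them. The genotypes are apart in all panels except *Prpf19* over *Prpf8*, where the highest WT library (1.42) reaches the KL-/- range (1.40 to 1.70).

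The Sm ring is the shared core of U1, U2, U4 and U5, and none of its 7 measured genes was called by edgeR's quasi-likelihood test, with 1 at an unadjusted p under 0.05. That one was *Snrpd3*, which had the largest difference in the ring. It was at 52.6, 45.9, 42.0 and 51.8 CPM in the 4 WT libraries and 57.9, 49.4, 59.0 and 63.3 CPM in the 4 KL-/- libraries. KL-/- replicate 2 lay within the WT range. Its difference was 0.26 on the log2 scale (standard error 0.096, FDR = 0.103). The FDR was 0.0260 without KL-/- replicate 2, from 0.0964 to 0.237 with each other library left out, and above 0.05 in all 12 other alternatives. *Snrpb* encodes SmB, and it had the highest level per exon length of all members (216 TPM ± 7.84 in WT, SD, n = 4), where TPM is the count per exon base relative to the sum of that quantity over all genes. It was at 104 ± 5.63 CPM in the WT muscles and 108 ± 2.02 CPM in those of KL-/- mice, with an interval of 2 standard errors from −0.063 to 0.16 on the log2 scale. The other ring genes had log2 fold changes of 0.14 for *Snrpd2*, 0.075 for *Snrpf*, 0.0056 for *Snrpg*, −0.037 for *Snrpe* and −0.16 for *Snrpd1*. The median over the ring was 0.047 on the log2 scale with TMM factors and −0.070 with library totals. 69.7% of the exon bases of *Snrpf* are shared with a gene on the opposite strand, and whether reads were counted by strand is not given in the sources used here.

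U2 and its SF3a and SF3b complexes are represented by 11 genes, and 1 of them was called higher, or 9.09% against 7.35% of all genes. *Sf3b1* encodes the largest SF3b subunit, which holds the branch point of the intron (chromosome 1, 54985170 to 55027478 of mm10). It was at 131, 117, 123 and 131 CPM in the WT muscles and 171, 156, 160 and 149 CPM in those of KL-/- mice, without overlap. The log2 fold change was 0.34 (standard error 0.062, FDR = 0.0102), a 1.27-fold difference, and the FDR was at most 0.0346 with each library left out. *Sf3b3*, its neighbour in the same complex, was at 27.9 ± 2.66 CPM in the 4 WT libraries and 26.4 ± 2.92 CPM in the 4 KL-/- libraries (SD, n = 4), and the ratio of *Sf3b1* to *Sf3b3* counts was 4.54 ± 0.621 for WT and 6.06 ± 0.505 for KL-/-, without overlap. This partner was chosen after the values had been seen. Over *Sf3b2*, of the same complex, the genotypes overlap (3639 to 2795 counts in WT replicate 4, against 3859 to 3010 in KL-/- replicate 3). Of the 10 U2 genes that were not called, *Sf3b2* was at 0.15 on the log2 scale (FDR = 0.146) and *Sf3a1* at −0.17 (FDR = 0.206). The remaining 8, *Sf3a2*, *Sf3a3*, *Sf3b3*, *Sf3b4*, *Sf3b5*, *Sf3b6*, *Snrpa1* and *Snrpb2*, lay between −0.080 and 0.13. *Snrpa1* shares 11.8% of its exon bases with a gene on the same strand.

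The tri-snRNP genes all had positive log2 fold changes with TMM factors, none passed the test, and 4 had an unadjusted p under 0.05, which 32.1% of all genes had. With library totals 5 of the 8 were positive, and with upper-quartile factors 6. *Prpf3*, a U4/U6 protein, had the largest difference. It was at 13.3, 12.9, 13.4 and 13.3 CPM in the WT muscles and 16.5, 15.7, 14.4 and 14.8 CPM in those of KL-/- mice, so that the genotypes did not overlap. The difference of 0.22 on the log2 scale (standard error 0.073) gave an FDR of 0.0755. *Snrnp200* (0.19, FDR = 0.0848), the helicase that unwinds U4 from U6, *Prpf6* (0.16, FDR = 0.116), which bridges U5 and U4/U6, and *Prpf4* (0.12, FDR = 0.166) also did not overlap between genotypes. *Snrnp27* was at 0.17 and *Prpf31* at 0.073. *Prpf8*, the large U5 protein at the centre of the catalytic core, was at 195 ± 14.4 CPM in the 4 WT libraries and 196 ± 14.3 CPM in the 4 KL-/- libraries (SD, n = 4), with an interval of 2 standard errors from −0.14 to 0.16. *Snrnp40*, another U5 protein, was at 0.017 on the log2 scale.

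The minor spliceosome was represented by 3 genes of the U11/U12 snRNP. *Snrnp48*, whose product recognizes the 5' splice site of minor introns (chromosome 13, 38204939 to 38227663 of mm10), was at 7.35, 8.60, 7.28 and 7.92 CPM in the WT muscles and at 9.45, 10.9, 9.90 and 10.9 CPM in those of KL-/- mice. Each KL-/- value was above each WT value. On the log2 scale KL-/- exceeded WT by 0.40 (standard error 0.095, FDR = 0.0254), a 1.32-fold difference at the lowest level per exon length of the 9 called members (10.1 TPM ± 0.736 in WT). The FDR reached 0.0731 with a library left out, and it was above 0.05 without WT replicate 1 or 3 or KL-/- replicate 3 or 4. It was 0.0561 with library totals. *Snrnp25* was at 5.37 ± 0.923 CPM in the 4 WT libraries and 5.84 ± 1.01 CPM in the 4 KL-/- libraries, and *Snrnp35* at 12.6 ± 0.864 and 11.9 ± 0.552 CPM (SD, n = 4).

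LSm proteins form a nuclear ring of LSm2 to LSm8 on U6 RNA and a cytoplasmic ring of LSm1 to LSm7 that acts in mRNA decay. LSm10 and LSm11 are part of the U7 ring, which acts in the processing of histone mRNAs. 1 of the 10 genes rose, or 10% against 7.35% of all genes. *Lsm6*, a subunit of the nuclear and the cytoplasmic ring (chromosome 8, 78804868 to 78821152 of mm10), was at 30.0, 29.0, 25.9 and 25.6 CPM in the WT muscles and at 36.5, 44.2, 42.0 and 36.8 CPM in those of KL-/- mice. The genotypes were well apart, with *Lsm6* showing the largest log2 fold change of all 53 members at 0.53 (standard error 0.087, FDR = 0.00736). This is a 1.44-fold difference, and the log2 value ranged from 0.49 to 0.58 with each library left out. For each count summed over the other 6 genes of the nuclear ring, *Lsm6* had 0.444, 0.408, 0.384 and 0.360 counts in the WT libraries and 0.554, 0.649, 0.617 and 0.532 in the KL-/- libraries, without overlap.

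The other LSm ring genes did not pass, and 7 of the 10 had negative log2 fold changes (8 with library totals, 6 with RLE size factors). *Lsm5* was at 0.34 (standard error 0.13, FDR = 0.101) and at 3.52 ± 0.274 against 4.47 ± 0.529 CPM, with 1 overlapping pair of libraries at so low a level. *Lsm8*, which marks the nuclear ring, was at 0.11, *Lsm1*, which marks the cytoplasmic ring, at −0.13, and *Lsm2*, *Lsm3*, *Lsm4* and *Lsm7* at −0.094, −0.18, −0.049 and −0.0057. *Lsm3* shares 27.6% of its exon bases with a gene on the same strand. The U7 genes had the lowest values, −0.40 for *Lsm10* (standard error 0.15, FDR = 0.107) and −0.26 for *Lsm11* (standard error 0.13, FDR = 0.187). *Lsm10* was at 3.71, 4.26, 4.16 and 4.55 CPM in the 4 WT libraries and 3.24, 2.67, 3.98 and 2.75 CPM in the 4 KL-/- libraries, where KL-/- replicate 3 lay inside the WT range, and with library totals its FDR was 0.0442. Outside the rings, *Lsm14b*, which encodes a cytoplasmic mRNA-binding protein rather than a spliceosome subunit (chromosome 2, 180024987 to 180035461 of mm10), was at 47.8, 43.8, 40.6 and 44.2 CPM in the WT muscles and 52.8, 55.6, 51.4 and 52.5 CPM in those of KL-/- mice. The difference was 0.27 on the log2 scale (standard error 0.064, FDR = 0.0267), with an FDR of up to 0.0707 and above 0.05 without WT replicate 2, 3 or 4 or KL-/- replicate 3 or 4. Its paralogue *Lsm14a*, a processing-body protein, was at 0.024 and *Lsm12* at 0.028.

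**Figure D3:**
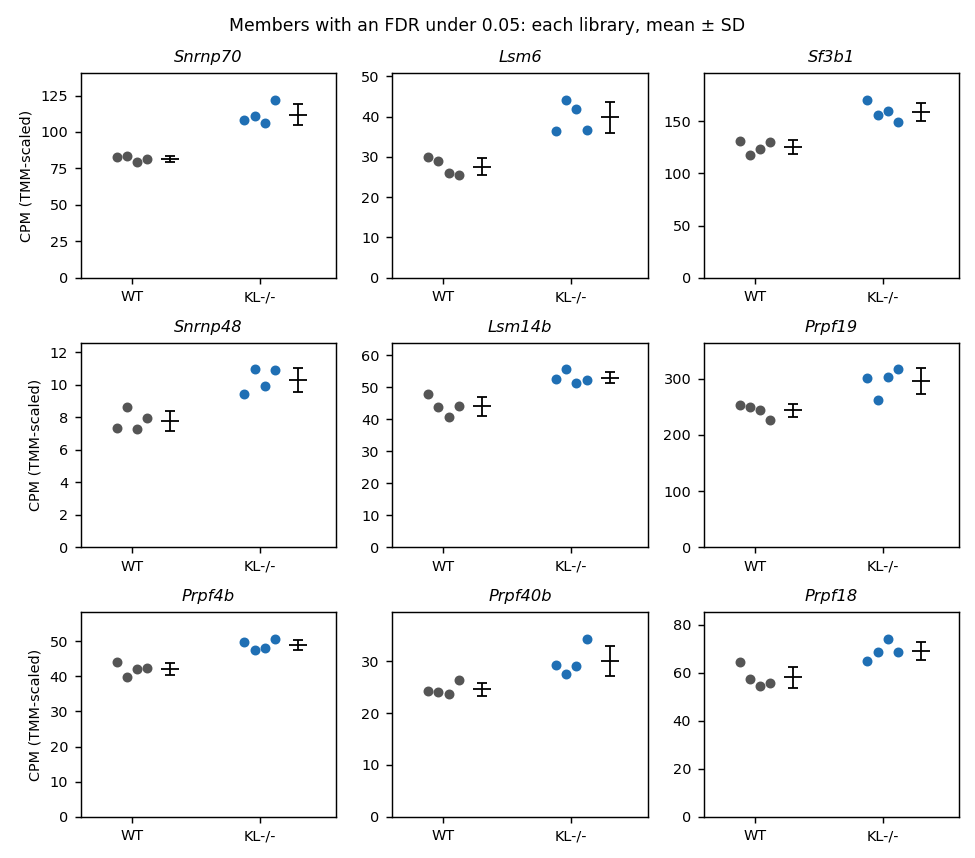
CPM (vertical axes, from 0, scaled with TMM factors) of the 9 members with an FDR under 0.05, with 1 point per library, grey for WT and blue for KL-/-, and the mean ± SD beside them. In each panel all 4 KL-/- points lie above all 4 WT points, by the widest relative margin in *Snrnp70* and *Lsm6* and by the narrowest in *Prpf18* (64.5 against 64.8 CPM).

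The remaining Prpf genes encode factors that join or leave the spliceosome during the reaction, and 4 of these 8 rose, or 50% against 7.35% of all genes. All 8 had positive log2 fold changes with TMM factors and with library totals. With library totals none of the 8 was called. All 8 had an unadjusted p under 0.05 with TMM factors, which 32.1% of all genes had, and their median log2 fold change was 0.24. *Prpf40b*, which encodes a U1-associated protein (chromosome 15, 99295409 to 99317007 of mm10), had the largest difference. It was at 24.2, 24.0, 23.7 and 26.4 CPM in the 4 WT libraries and 29.4, 27.5, 29.1 and 34.3 CPM in the 4 KL-/- libraries, with the highest KL-/- value in replicate 4. In log2 units the genotypes differed by 0.29 (standard error 0.081, FDR = 0.0424). The FDR reached 0.108 with a library left out and stayed under 0.05 only without WT replicate 4 or KL-/- replicate 2.

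*Prpf19* encodes a ubiquitin ligase that gives its name to the complex needed to activate the spliceosome (chromosome 19, 10895231 to 10909559 of mm10). It was at 254, 250, 244 and 227 CPM in the WT muscles and 302, 262, 304 and 317 CPM in those of KL-/- mice, where replicate 2 lay nearest to WT. This was a log2 difference of 0.28 (standard error 0.071, FDR = 0.0305), and of the fits with a library left out only that without KL-/- replicate 2 gave an FDR under 0.05 (0.00527). Its ratio to *Prpf8* counts was 1.26 ± 0.129 for WT and 1.51 ± 0.138 for KL-/- (SD, n = 4), with overlap. *Prpf18*, which encodes a factor of the second catalytic step (chromosome 2, 4622167 to 4652086 of mm10), was at 64.5, 57.4, 54.6 and 55.9 CPM in the WT muscles and 64.8, 68.7, 74.1 and 68.4 CPM in those of KL-/- mice. WT replicate 1 and KL-/- replicate 1 were almost level. The log2 fold change was 0.25 (standard error 0.070, FDR = 0.0444), with an FDR of up to 0.122 and above 0.05 without WT replicate 2, 3 or 4 or KL-/- replicate 3 or 4.

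*Prpf4b* encodes a kinase that phosphorylates tri-snRNP proteins (chromosome 13, 34875494 to 34902878 of mm10). It was at 44.1, 39.8, 42.1 and 42.3 CPM in the 4 WT libraries and 49.7, 47.5, 48.1 and 50.7 CPM in the 4 KL-/- libraries, without overlap and with little spread in either genotype. The log2 fold change of 0.22 (standard error 0.056, FDR = 0.0321) had an FDR of up to 0.0915 with a library left out, and the FDR stayed under 0.05 only without WT replicate 1 or KL-/- replicate 2. *Prpf39*, chosen after its values were seen, lay just outside the threshold (log2 fold change 0.26, FDR = 0.0501), and its genotypes did not overlap. DESeq2, limma-voom, the likelihood ratio test and the edgeR 3 test called it higher. So did the fits with RLE size factors, with the gene length correction and without KL-/- replicate 2. The other alternatives did not (FDR = 0.193 with library totals). *Prpf39* shares 14.7% of its exon bases with a gene on the opposite strand. *Prpf38a* and *Prpf38b* were both at 0.19 on the log2 scale, with an FDR of 0.134 and 0.105.

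**Figure D4:**
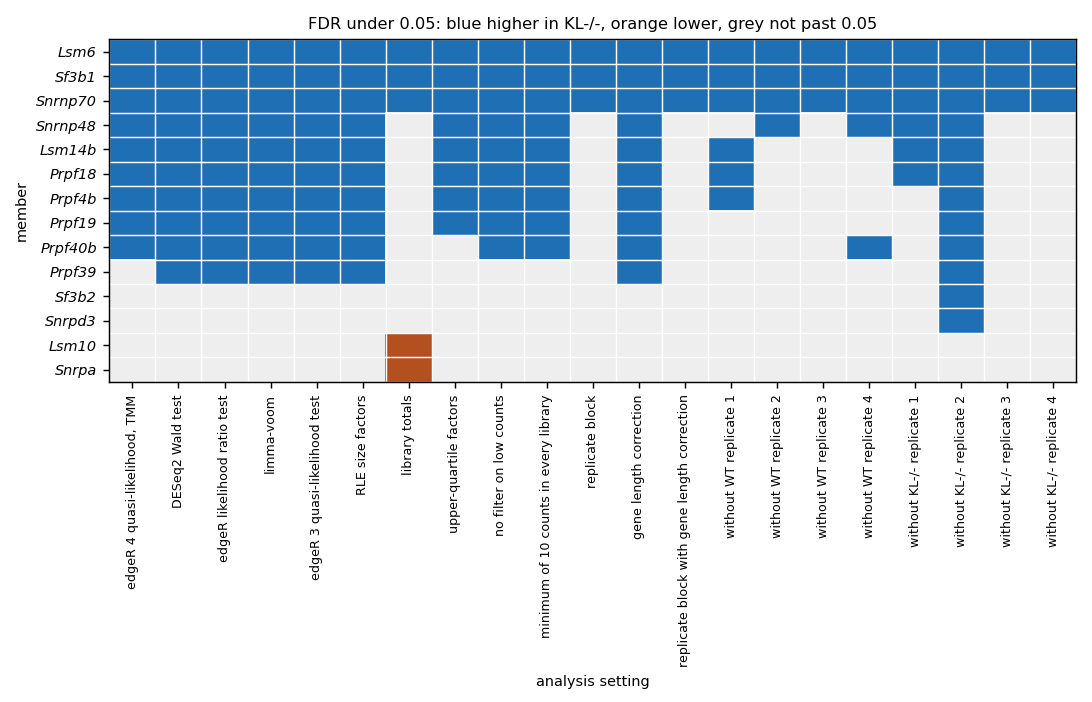
Members (rows, of the 52 shown) that passed an FDR of 0.05 in at least 1 of the analyses (columns), blue where higher in KL-/-, orange where lower and grey where not past the threshold; the first column is the analysis reported here. The rows of *Lsm6*, *Sf3b1* and *Snrnp70* are blue throughout, and *Lsm10* and *Snrpa* are orange in the column for library totals.

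The promoters of the 3 members called in every analysis, and that of *Prpf19*, the most highly counted of the other 6, are shown so that the start of each gene can be seen beside its change. They are RefSeq sequences of GRCm38.p6, the 100 bases before the annotated start, written 5' to 3' on the strand of the gene. Capitals mark matches on either strand to CCAAT (the CCAAT box), CCGGAAG (a core bound by ETS factors) or GCATGCGC (part of the site of NRF1). *Snrnp70* lies at chr7:45395743-45395842 on the minus strand, *Sf3b1* at chr1:55027479-55027578 on the minus strand, *Lsm6* at chr8:78821153-78821252 on the minus strand and *Prpf19* at chr19:10895131-10895230 on the plus strand.
Snrnp70: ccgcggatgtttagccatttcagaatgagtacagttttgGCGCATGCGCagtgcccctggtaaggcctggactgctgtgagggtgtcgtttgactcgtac
Sf3b1: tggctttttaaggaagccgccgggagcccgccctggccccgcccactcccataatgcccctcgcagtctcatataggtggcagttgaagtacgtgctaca
Lsm6: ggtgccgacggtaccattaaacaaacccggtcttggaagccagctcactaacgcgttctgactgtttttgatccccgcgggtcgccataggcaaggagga
Prpf19: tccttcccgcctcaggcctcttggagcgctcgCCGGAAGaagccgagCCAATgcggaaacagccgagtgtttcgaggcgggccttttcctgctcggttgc

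The capitals in *Snrnp70* are 2 overlapping matches to GCATGCGC, 1 on each strand, and those in *Prpf19* are a CCGGAAG and a CCAAT. No listed motif is in the stretches printed for *Sf3b1* and *Lsm6*. Promoters of 250 bases before to 50 after the start were found for 43 members, and for 9560 genes of the count table. CCGGAAG was in 39.5% of the members' promoters and in 18.3% of all of these promoters, and in 2 of the 8 promoters found for called members. CCAAT was in 39.5% and 38.0%, GCATGCGC in 9.30% and 5.52%, CACGTG in 9.30% and 10.4%, AAGATGGC in 6.98% and 4.77%, and TATAAA in 6.98% and 7.2%. The last 4 of these are sites or cores of NRF1, E-box factors, YY1 and the TATA box. The matches are a description of these windows.

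Other splicing genes were taken from 4 lists of partners that the symbol rule does not match, and 17 of their 89 measured genes rose and 1 fell (19.1% called higher against 7.35% of all genes). The lists had a median log2 fold change of 0.068 together, and −0.051 with library totals, where 7 were called higher and 4 lower. Among 30 measured partner proteins of the snRNPs, 10 rose (33.3%, against 7.35% of all genes) and 1 fell, where 6.67% of all genes fell. With library totals 6 of these rose and 1 fell. Their median log2 fold change was 0.16 with TMM factors and 0.043 with library totals. *Ddx46*, a helicase that acts with U2, was at 53.5 ± 4.56 CPM in the WT muscles and 73.8 ± 7.88 CPM in those of KL-/- mice (SD, n = 4), or 0.46 higher on the log2 scale (standard error 0.091, FDR = 0.0130). *Zrsr2*, which recognizes the 3' splice site of minor introns, was at 0.42 (FDR = 0.0220), *Rbm17* at 0.42 (FDR = 0.0104) and *Luc7l2*, a U1-associated protein, at 0.41 (FDR = 0.00584). *Luc7l2* was at 157 ± 8.27 CPM in the 4 WT libraries and 209 ± 11.4 CPM in the 4 KL-/- libraries and, like *Ddx46*, was called in all 20 alternatives. *Rbm17* was called in 19 of them and *Zrsr2* in 12, with an FDR of 0.0538 for *Zrsr2* with library totals. *Pdcd7*, a U11/U12 protein chosen after its values were seen, was the 1 gene that fell, from 21.8 ± 1.99 to 17.2 ± 1.09 CPM, a log2 difference of −0.34 (standard error 0.086, FDR = 0.0299) that was called in 13 of the 20 alternatives.

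Of 34 factors of the Prp19 complex and the catalytic steps, 6 rose (17.6%, against 7.35% of all genes) and 0 fell by edgeR's quasi-likelihood test. An unadjusted p under 0.05 was found for 12 (35.3%, near the 32.1% of all genes). *Snw1*, a scaffold of the active spliceosome, rose from 50.8 ± 2.96 to 69.8 ± 3.48 CPM (SD, n = 4), or by 0.46 on the log2 scale (standard error 0.064, FDR = 0.00450), and was called in all 20 alternatives. *Wbp11* was at 0.39 (FDR = 0.0295), *Syf2* at 0.38 (FDR = 0.0444) and *Dhx15*, the helicase that releases the spliced intron complex, at 0.29 (FDR = 0.0125). Those 3 were called in 12, 10 and 18 of the 20 alternatives, and with library totals none of them was (FDR = 0.0820, 0.0954 and 0.0573). Of 17 genes that assemble snRNPs, which include the SMN complex, 1 rose, or 5.88% against 7.35% of all genes. This was *Ddx20* (log2 fold change 0.30, FDR = 0.0474, called in 10 of the 20 alternatives). With upper-quartile factors or library totals 0 of the 17 rose. None of the 8 genes of decapping and mRNA decay that act with the cytoplasmic LSm ring was called by edgeR's quasi-likelihood test, with 1 at an unadjusted p under 0.05, and 1 was called lower with library totals.

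Levels per exon length spread over 2 orders of magnitude among the members in WT muscle. After *Snrpb* came *Snrpd3* at 185 ± 19.8 TPM, *Snrpd2* at 130 ± 4.60 TPM and *Snrnp27* at 120 ± 2.84 TPM (SD, n = 4). The gap between *Snrpb* and *Snrpd3* was less than 2 SD of *Snrpd3*. *Sf3b1* was at 47.1 ± 3.03 TPM, *Snrnp70* at 46.2 ± 0.681 TPM and *Lsm6* at 16.8 ± 0.987 TPM, so that the 3 members called in every analysis were not the most abundant of their groups. *Lsm11* was lowest, at 2.01 ± 0.270 TPM. The share of all gene counts held by the members was 0.204% ± 0.00490 in the WT and 0.210% ± 0.00712 in the KL-/- libraries (SD, n = 4), with overlap.

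**Figure D5:**
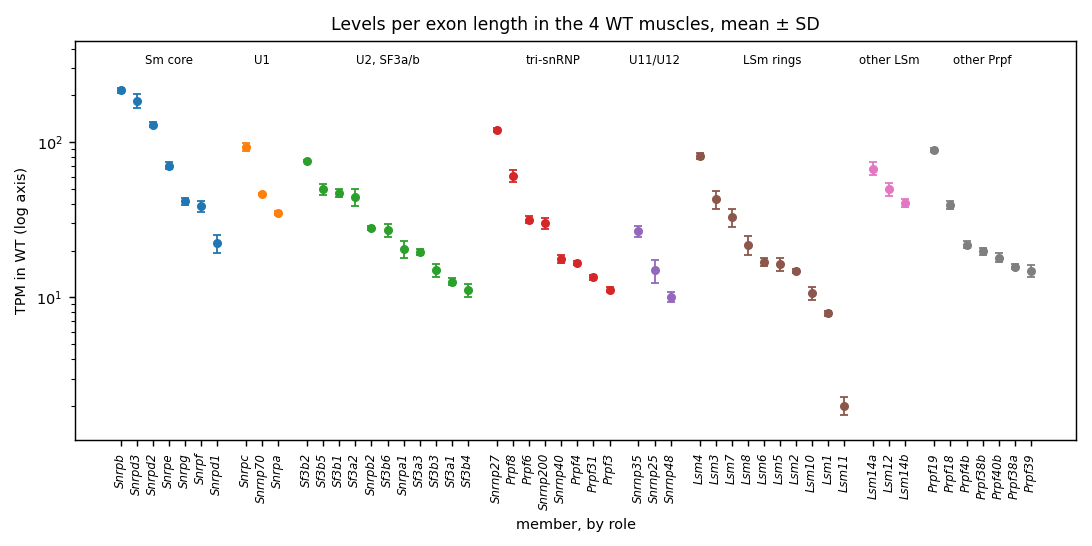
Level per exon length of 52 of the 53 members in the 4 WT muscles (TPM, logarithmic vertical axis; mean ± SD), grouped by role and ordered by level. *Snrpb*, *Snrpd3*, *Snrpd2* and *Snrnp27* exceed 100 TPM, and *Lsm11* lies lowest at 2.01 TPM.

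Some markers of other cells were called between genotypes in these libraries, where 7.35% of all genes were called higher and 6.67% lower. 2 of 5 fibroblast markers fell and 0 rose, with a summed level of 696 to 2821 CPM in the WT muscles and 362 to 1245 CPM in those of KL-/- mice. 2 of 8 macrophage markers fell, at 35.2 to 83.1 against 27.4 to 52.1 CPM, and 1 of 4 endothelial markers, at 381 to 566 against 345 to 379 CPM. 2 of 4 Schwann cell markers rose, at 50.8 to 91.6 against 95.2 to 116 CPM. 3 of 4 adipocyte markers were measured and none was called, at 6.29 to 24.4 against 4.89 to 68.4 CPM. Of 5 erythroid and 4 lymphocyte markers only *Alas2* (3.35 to 9.58 against 3.07 to 9.16 CPM) and *Ptprc* (2.12 to 5.11 against 1.16 to 2.67 CPM) were among the genes analysed, and neither was called. Of the 10 muscle fibre markers 1 rose, and their summed level did not overlap between genotypes (154800 to 177300 against 181700 to 227800 CPM). The part of these cells in the members' differences was not tested.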

How the data were processed

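RNA (100 ng per library) from whole TA muscle of 4 WT and 4 KL-/- mice was sequenced. Per the labels and methods the authors used STAR for alignment to mm10, and the deposited values are raw featureCounts counts per gene; every gene reached 0.603 CPM in at least 4 libraries. Annotation release, strand setting and treatment of multi-mapping reads are not given in the sources used here, and reads of small Sm and LSm genes could be shared with pseudogenes. The study's methods name mRNA sequencing and the labels total RNA.

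Genotypes were compared by edgeR 4.0.16 in R 4.3.3: default low-count filter, TMM factors, genotype as the only term, the edgeR 4 quasi-likelihood test and Benjamini-Hochberg adjustment. Standard errors were taken from the test statistic. TPM values were computed from the counts and the deposited exon lengths. Exon overlaps used GENCODE M21 on GRCm38, in which all 53 members were found. Alternatives used DESeq2 1.42.0, limma-voom (limma 3.58.1), the likelihood ratio test, the edgeR 3 quasi-likelihood test (added after the data were seen), other scalings and filters, a loess correction for gene length (span 0.3), the replicate number as a block and each library left out. No 2 libraries of a genotype were duplicates (chi-square per gene of 9.91 or more).

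The members, roles and lists were chosen with earlier results of these data known. 1 member is counted in all totals but is not reported here by name or in the figures. Genes named with values are members past an FDR of 0.05, the member of each role with the largest absolute log2 fold change, and up to 4 called genes of each partner list by size of change. Other members are given by level or fold change only, and a few more genes were chosen after their values were seen. The design text calls the mice littermates and the titles number them; p-values measure the spread between these samples.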

Additional observations from a re-analysis of the deposited data

Results flagged for a closer look

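2 of 106 groups of 4 libraries (53 members in each genotype) held a library far from the other 3 by the gap between neighbouring values on the log2 scale, a criterion that flags about 1 in 20 groups by chance. *Sf3a2*, a subunit of SF3a, was at 38.3 CPM in KL-/- replicate 1 and from 29.5 to 30.7 CPM in the other KL-/- libraries. *Lsm7*, a subunit of the LSm rings, was at 5.20 CPM in WT replicate 4 and from 7.02 to 7.12 CPM in the other WT libraries. Neither gene was called between genotypes.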

How the results depend on the processing

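Of 220 refitted values of the 11 members named by the rule (20 alternatives each), 167 kept their direction and their side of the FDR threshold, 52 fell out of the calls, 1 entered them and 0 changed direction. All 52 came from the 6 called members other than *Snrnp70*, *Sf3b1* and *Lsm6*. *Snrpd3* and *Prpf3* were not called, and their values count as kept where they stayed so. The 167 include 11 values from the analysis without a filter, which equals the reported one because the filter removed no gene. With scaling by library totals, 3 members were called higher, 2 lower and 11 of the partner genes either way, against 9, 0 and 18, and the members' median log2 fold change was −0.043. This scaling moves all genes down by about the same amount by construction. Other tests, scalings and filters gave 8 to 10 members called higher.

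The correlations of deviations between same-numbered libraries were −0.146, 0.181, −0.368 and 0.0170, and 1 of 4 WT libraries correlated best with its own number. These 4 values cannot decide whether the replicate numbers pair the mice. With the replicate block, 3 members, 5 partner genes and 671 of all genes were called (3, 8 and 666 with the gene length correction as well), against 9, 18 and 1759. The fit has fewer residual degrees of freedom.

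With each library left out in turn, between 3 and 12 members were called higher, between 8 and 25 partner genes and between 762 and 2755 of all genes, and the members' median log2 fold change lay between 0.038 and 0.11. The alternatives for the partner genes were added after the data were seen. With 4 mice per genotype, standard errors of 0.054 to 0.16 on the log2 scale limit what could be detected among the members.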

Other observations

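The 9 called members were among the longer ones. Their exon lengths ran from 1789 to 6333 bases with a median of 3801, against a median of 1240 for the other 44. With a limit of 1500 bases, chosen after the values were seen, 9 of 30 longer and 0 of 23 shorter members were called higher by edgeR's quasi-likelihood test, and 4 of the shorter (17.4%) had an unadjusted p under 0.05, against 31.9% of all shorter genes. Over all genes, 6.90% of the longer and 9.68% of the shorter were called higher. The called members were also measured at a higher level, with a median of 44.1 CPM in WT against 15.3 CPM, and their median standard error was 0.070 against 0.084 on the log2 scale. Across the 53 members Spearman's rho of the log2 fold change was 0.290 with exon length and 0.474 with mean log2 CPM, against −0.0424 and 0.236 across all 12551 genes. Members share these 8 libraries, so the correlations are a description only.

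The genes of 1 family that acts with U1 were seen together in 1 of the partner lists, an observation made after their values were known. *Luc7l*, *Luc7l2* and *Luc7l3*, relatives of a yeast U1 protein, had log2 fold changes of 0.33 (FDR = 0.0166), 0.41 (FDR = 0.00584) and 0.41 (FDR = 0.0192) in edgeR's quasi-likelihood test. Mean levels of *Luc7l* were 16.6 CPM in WT against 20.9 CPM in KL-/- mice (n = 4 each, without overlap), and those of *Luc7l3* were 48.7 ± 2.74 and 64.8 ± 7.88 CPM (SD, n = 4). The 3 *Luc7l* genes were called in 17, 20 and 16 of the 20 alternatives, and with library totals *Luc7l* had an FDR of 0.0598. Of all genes, 7.35% were called higher. Among the genes of U1's own proteins, *Snrnp70* was called higher (0.45). *Snrpa* (−0.15, FDR = 0.161) and *Snrpc* (0.023, FDR = 0.839) were not called.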
